A study of Mus musculus with 9 samples.

Results

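The expression of 10 interneuron subtype marker genes was examined in neuronal nuclei of the mouse hippocampus. The genes were chosen by name, as the listed markers Lhx6, Sst, Pvalb, Adarb2, Vip, Calb2, Lamp5, Npy, Reln and Nos1, and all 10 were found among the 48709 genes of the count tables. Each of the 10 also passed the filter on low counts, with 125 (Pvalb) to 4564 (Lamp5) counts in a library, among 17361 genes tested. Values are counts over the exons of each gene, with positions from GENCODE M21 on build mm10. The genes of the MGE lineage, a source of interneurons in the embryonic brain, are Lhx6 (ENSMUSG00000026890) on chromosome 2 from 36081953 to 36105408 on the minus strand, Sst (ENSMUSG00000004366) on chromosome 16 from 23889573 to 23890958 on the minus strand and Pvalb (ENSMUSG00000005716) on chromosome 15 from 78191114 to 78206400 on the minus strand. Those of the CGE lineage are Adarb2 (ENSMUSG00000052551) on chromosome 13 from 8202866 to 8768747 on the plus strand, Vip (ENSMUSG00000019772) on chromosome 10 from 5639218 to 5647617 on the plus strand, Calb2 (ENSMUSG00000003657) on chromosome 8 from 110137502 to 110168210 on the minus strand and Lamp5 (ENSMUSG00000027270) on chromosome 2 from 136052239 to 136069917 on the plus strand. The other genes are Npy (ENSMUSG00000029819) on chromosome 6 from 49822710 to 49829507 on the plus strand, Reln (ENSMUSG00000042453) on chromosome 5 from 21884454 to 22344702 on the minus strand and Nos1 (ENSMUSG00000029361) on chromosome 5 from 117781032 to 117958840 on the plus strand.

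NeuN-stained nuclei were sorted from frozen hippocampi and sequenced in 9 libraries, 3 a group. The WT vehicle group was C57BL/6J mice on tap water. The Tg4-42 vehicle group was homozygous Tg4-42 mice on tap water, which carry human Aβ4-42 fused to a murine TRH signal peptide under the neuronal murine Thy1 promoter on the C57BL/6J background. The Tg4-42 caffeine group was the same homozygous line given 300 mg/l caffeine in the drinking water for 4 months from 2 months of age. All mice were 6 months old, and there was no caffeine-treated WT group. The labels state the treatment of the caffeine group only, and the vehicle groups follow from the genotype label and the study's design. The sources give 6 mice a group for the isolation of nuclei and 3 for sequencing, so that each library may stand for 1 mouse or for a pool, and p-values measure the spread between these libraries.

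Hippocampal interneurons release GABA and control the firing of the excitatory pyramidal and granule cells. They fall into families by their origin in the embryonic brain. Cells from the medial ganglionic eminence (MGE) depend on the transcription factor Lhx6 and include the somatostatin (Sst) and parvalbumin (Pvalb) cells. Cells from the caudal ganglionic eminence (CGE) commonly express Adarb2 and include Vip cells, which mainly inhibit other interneurons, many Calb2 (calretinin) cells, and part of the Lamp5 cells. Lamp5 is grouped here with the CGE genes by convention, not as a marker of that origin alone. Npy, Reln and Nos1 occur in cells of both origins, among them neurogliaform and ivy cells. Several of the markers are not exclusive to interneurons, since Reln is also made by Cajal-Retzius cells and Calb2 by mossy cells in the mouse.

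The bases before an annotated RefSeq start on build GRCm38.p6 are shown for 4 genes with the clearest caffeine values or with the motif searched. In RefSeq 9 of the 10 genes had an entry. Each run holds the 250 bases before the start, 5′ to 3′ on the gene's own strand. Capitals mark TGACG on either strand, the core of the cAMP response element to which CREB family factors bind.
Sst (chr16:23890845-23891094, minus strand): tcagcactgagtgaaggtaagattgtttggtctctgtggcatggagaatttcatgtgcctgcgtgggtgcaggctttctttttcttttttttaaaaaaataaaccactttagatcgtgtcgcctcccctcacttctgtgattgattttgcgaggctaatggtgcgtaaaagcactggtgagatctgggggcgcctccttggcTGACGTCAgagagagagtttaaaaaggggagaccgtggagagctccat
Vip (chr10:5638968-5639217, plus strand): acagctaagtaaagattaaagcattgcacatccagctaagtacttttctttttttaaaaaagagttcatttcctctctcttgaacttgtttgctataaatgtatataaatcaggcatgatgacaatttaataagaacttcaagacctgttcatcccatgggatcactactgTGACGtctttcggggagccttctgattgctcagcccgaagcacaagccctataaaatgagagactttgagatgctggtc
Nos1 (chr5:117866589-117866838, plus strand): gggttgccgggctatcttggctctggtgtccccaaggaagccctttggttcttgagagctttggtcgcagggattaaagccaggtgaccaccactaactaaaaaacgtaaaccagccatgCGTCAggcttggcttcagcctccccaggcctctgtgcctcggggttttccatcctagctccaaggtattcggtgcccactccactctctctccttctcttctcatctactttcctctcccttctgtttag
Reln (chr5:22344706-22344955, minus strand): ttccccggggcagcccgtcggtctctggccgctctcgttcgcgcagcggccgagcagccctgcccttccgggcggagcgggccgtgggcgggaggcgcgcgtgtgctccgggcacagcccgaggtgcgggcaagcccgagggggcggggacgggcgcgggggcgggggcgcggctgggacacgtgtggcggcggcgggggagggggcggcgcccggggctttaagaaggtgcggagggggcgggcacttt
The motif was present before a start site of Sst, Vip and Nos1, in 3 of the 13 start sites of the 9 genes. It was present in 17.8% of all 32851 windows of the same length. In Sst the matches began 48 and 45 bases before the start, on opposite strands and overlapping. The match began 79 bases before the start in Vip and 130 bases before it in Nos1. The Nos1 window lies inside the gene, whose GENCODE span begins at 117781032, so it is not upstream of the whole gene. The Sst window lies partly inside the gene, whose GENCODE span on the minus strand reaches 23890958. Both Sst matches lie in that inner part. A match of these letters is a description of the sequence, not a measured binding site.

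Total counts ranged from 9342945 to 16376922 a library, and 3 counts corresponded to 0.183 to 0.321 CPM, the count as a share of the library's total. CPM here were scaled by TMM factors, which make libraries of different composition comparable. Sequencing lane 6 held replicates 1 and 2 of each group and lane 7 held replicate 3, so that lane and replicate 3 cannot be told apart. Rbfox3, which encodes the NeuN antigen, ranged from 89.3 to 147.7 CPM over the 9 libraries. The first WT vehicle library stood apart in a thalamic marker, with Tcf7l2 at 13.3 CPM against at most 1.38 CPM elsewhere. Endothelial markers summed to 0.325 to 1.29 CPM in every library, while astrocyte markers summed to 276 to 415 CPM and oligodendrocyte markers to 227 to 461 CPM.

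Per kilobase of exon (FPKM), Sst had the highest level of the 10 genes in WT vehicle nuclei, at 279 ± 28.7 FPKM (SD, n = 3), followed by Npy at 173 ± 30.4 FPKM. Lamp5 (69.9 ± 27.2 FPKM) and Vip (54.9 ± 26.8 FPKM) came next, and their libraries overlapped. Pvalb (13.6 ± 1.43 FPKM), Calb2 (12.99 ± 4.64 FPKM) and Adarb2 (6.54 ± 1.34 FPKM) formed a chain in which each gene overlapped with the next. Lhx6 (3.95 ± 0.38 FPKM) lay below Adarb2 in every library, and Reln (2.59 ± 0.47 FPKM) and Nos1 (2.19 ± 0.21 FPKM) overlapped at the lower end. With caffeine the last places were exchanged, with Nos1 at 2.94 ± 0.45 FPKM and Reln at 1.72 ± 0.10 FPKM without overlap. The exon length rests on the merged exons of each gene, so that the order is approximate for genes with many isoforms.

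To see whether the transgene alone altered the markers, Tg4-42 vehicle was compared with WT vehicle. None of the 10 genes passed the threshold in edgeR's quasi-likelihood test (all adjusted p = 1.00), against 0.0979% of all genes called. DESeq2 called 0 of the 10 as well, against 25 of 26182 genes. Npy alone of the 10 had an unadjusted p under 0.05, against 2.74% of all genes. No gene had libraries that did not overlap between these groups, against 6.73% of all genes. All 10 fitted differences were above 0, from 0.01 to 0.41 on the log2 scale with a median of 0.24, while the median of all genes was 0.00. Of 10 tested genes shared by inhibitory neurons (pan-GABAergic genes), 9 were also higher, with a median of 0.28. Of 16 other MGE genes 13 were higher (median 0.27), and of 16 other CGE genes 10 were (0.12). Medians were 0.19 over 4 neocortical, 0.23 over 5 oligodendrocyte and -0.13 over 4 CA1 markers. Npy was 77.98, 105 and 109.8 CPM in WT vehicle and 140.0, 93.2 and 156 CPM in Tg4-42 vehicle, with a log2 fold change of 0.41 ± 0.17 (SE). The second Tg4-42 vehicle library lay within the WT range, so that the groups overlapped.

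To see whether caffeine altered the markers in the transgenic line, Tg4-42 caffeine was compared with Tg4-42 vehicle. None of the 10 genes was called by edgeR (adjusted p from 0.0613 to 0.617), against 0.881% of all genes. DESeq2 called 1 of the 10, Reln, against 747 of 14595 genes. The 153 calls among all genes behind the edgeR share were 341, 58 and 0 without caffeine replicate 1, 2 or 3. They were 3, 190 and 0 without Tg4-42 vehicle replicate 1, 2 or 3. With sequencing lane as a covariate 9 genes were called, and with the neocortical or the granule cell marker sum as a covariate 0 were. Of the 10 genes, chosen with earlier results of these data known, 7 had an unadjusted p under 0.05, against 17% of all genes. Of these, 6 had lower values with caffeine (Lhx6, Sst, Vip, Lamp5, Npy and Reln), against 9.82% of all genes, and Nos1 had a higher value, against 7.15% of all genes. The median log2 fold change of the 10 genes was -0.49, beside -0.01 for all genes tested. The libraries of both groups did not overlap for 3 of the 10 genes, Vip, Reln and Nos1, against 23% of all genes. In such bulk samples fewer cells of a type and less RNA per cell cannot be told apart. Within lane 6, with 2 libraries a group, edgeR called 0 of the 10 genes and 0 of all genes. There Vip (-0.73) and Reln (-0.54) had an unadjusted p under 0.05, beside 956 of 17518 genes. Lane 7 held 1 library a group.

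**Figure D1:**
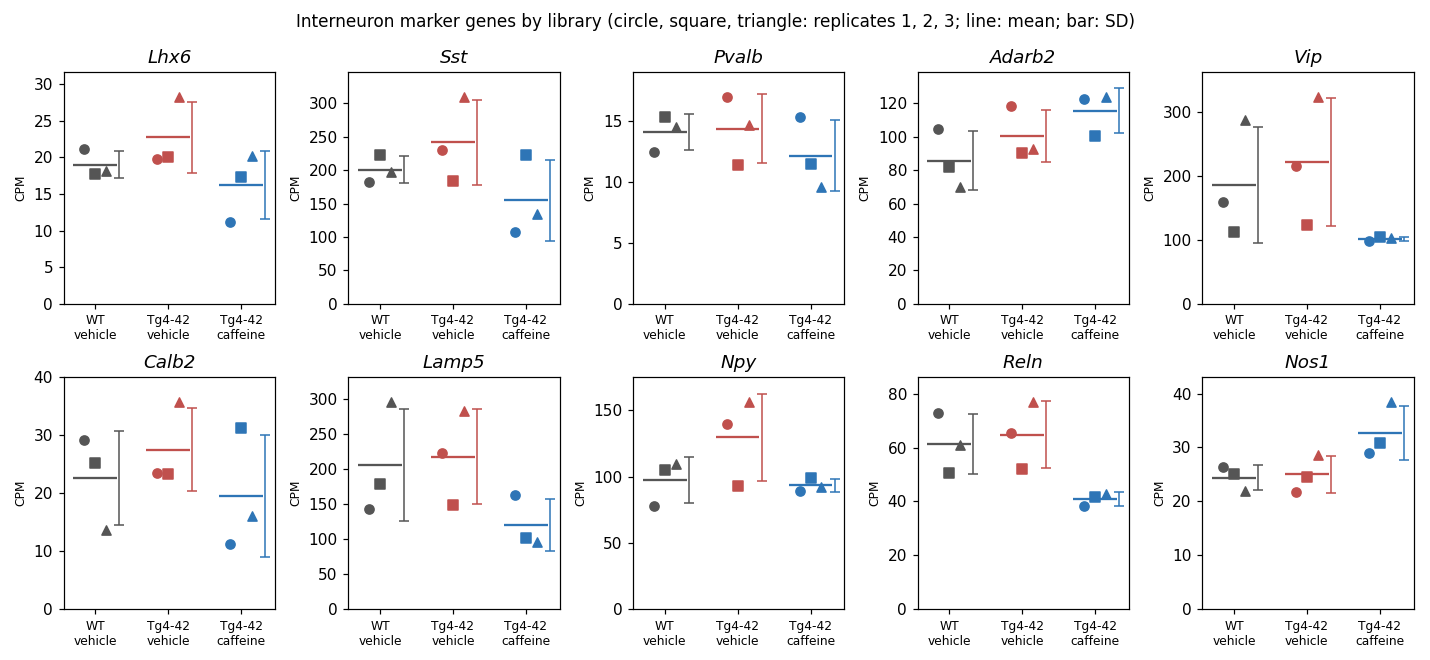
CPM (vertical axis) of the 10 marker genes in each of the 9 libraries, with circles, squares and triangles for replicates 1, 2 and 3, a line for the group mean and a bar for the SD. The caffeine libraries of Vip lie between 97.8 and 104 CPM and those of Reln between 38.2 and 42.9 CPM, below all vehicle libraries, while those of Nos1 lie above them.

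Among the MGE genes, Sst, a peptide that is released by dendrite-targeting interneurons, was 231, 184 and 310.0 CPM in Tg4-42 vehicle and 108, 222 and 134 CPM with caffeine. The second caffeine library lay inside the vehicle range. The log2 fold change was -0.64 ± 0.25 (edgeR adjusted p = 0.222), and without that library it was -0.997 with an adjusted p of 0.0471. Lhx6, the transcription factor of this lineage, was 19.8, 20.1 and 28.3 CPM with vehicle and 11.1, 17.4 and 20.1 CPM with caffeine. Its groups overlapped, with a log2 fold change of -0.49 ± 0.21 (edgeR adjusted p = 0.254). Pvalb, a calcium buffer of fast-spiking basket cells, was 17.0, 11.4 and 14.7 CPM with vehicle and 15.4, 11.5 and 9.61 CPM with caffeine, and the difference of -0.23 ± 0.21 was about the size of its error.

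Among the CGE genes, Vip, a peptide of interneuron-selective cells, was 216, 124 and 325 CPM in Tg4-42 vehicle and 97.8, 104 and 102 CPM with caffeine. In WT vehicle it was 159.9, 112 and 288 CPM. All caffeine libraries lay below all vehicle libraries of both genotypes, and the vehicle libraries spread widely. The log2 fold change against Tg4-42 vehicle was -1.13 ± 0.42 (edgeR adjusted p = 0.233, exact permutation p = 0.1, the smallest that 3 against 3 can give). Lamp5, a membrane protein of neurogliaform-type cells that is also found in cortical excitatory neurons, was 222, 148 and 282 CPM with vehicle and 163, 102 and 95.9 CPM with caffeine. The first caffeine library exceeded the second vehicle library, and the log2 fold change was -0.85 ± 0.33 (edgeR adjusted p = 0.238). Calb2, a calcium-binding protein, was 23.5, 23.4 and 35.7 CPM with vehicle and 11.2, 31.3 and 16.1 CPM with caffeine, an overlapping pair of groups with a difference of -0.50 ± 0.39. The difference was -1.02 without the second caffeine library, -0.22 without the first and -0.25 without the third vehicle library. Adarb2, a brain RNA-binding protein related to RNA-editing enzymes, was 119, 90.4 and 93.0 CPM with vehicle and 123, 100.3 and 124 CPM with caffeine. Its log2 difference of 0.20 ± 0.16 was positive while those of the other CGE genes were negative.

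Vip and Lamp5 varied with markers of other regions across libraries. The sum of 4 neocortical markers (Rorb, Cux2, Fezf2 and Tshz2) was 103.8, 86.0 and 127 CPM in Tg4-42 vehicle, 83.8, 70.3 and 55.5 CPM with caffeine and 86.0, 72.6 and 119 CPM in WT vehicle. The libraries with the highest sums, the third of WT vehicle and of Tg4-42 vehicle, also had the highest Vip and Lamp5. The sum of 7 dentate granule cell markers was 631, 786 and 459 CPM in Tg4-42 vehicle and 869.7, 895 and 1077 CPM with caffeine, without overlap. Of the 7, 5 were higher at an unadjusted p under 0.05, against 7.15% of all genes. With the neocortical sum as a covariate, added after seeing the data, the difference of Vip was -0.12 and that of Lamp5 -0.06. With the granule cell sum as a covariate, also added afterwards, they were -0.03 and -0.20. Both sums separated the caffeine from the Tg4-42 vehicle libraries, so that the markers and the treatment cannot be told apart in these fits.

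**Figure D2:**
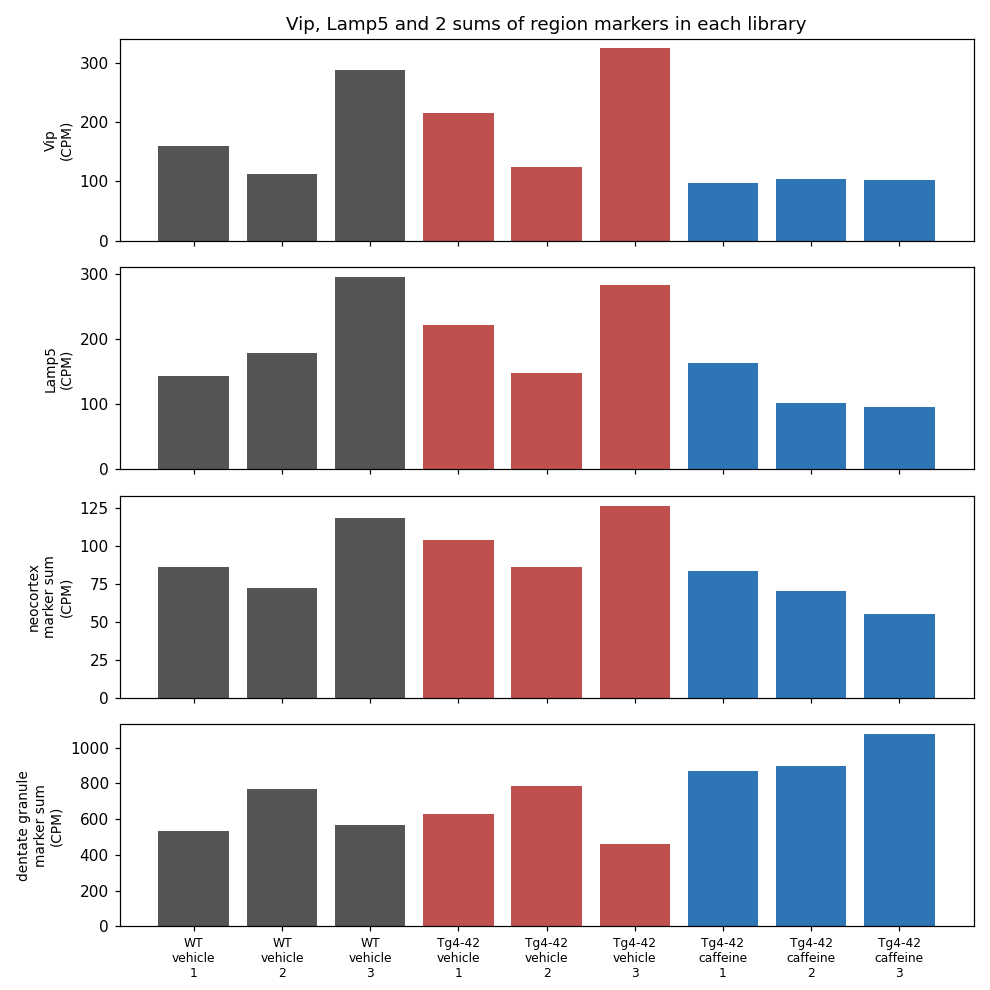
CPM of Vip and Lamp5 and the summed CPM of 4 neocortical and 7 dentate granule cell markers (vertical axes, bars) in each of the 9 libraries, grouped by colour. The caffeine libraries have the 3 highest granule cell sums, from 869.7 to 1077 CPM.

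Among the genes found in cells of both origins, Reln, a secreted glycoprotein that signals through Lrp8 and Vldlr, had the smallest adjusted p. It was 65.5, 52.0 and 77.01 CPM in Tg4-42 vehicle, 72.8, 50.5 and 61.0 CPM in WT vehicle and 38.2, 41.6 and 42.9 CPM with caffeine. The caffeine libraries lay below all 6 vehicle libraries, with a log2 fold change of -0.66 ± 0.16 against Tg4-42 vehicle (edgeR adjusted p = 0.0613). Over 16 alternatives its adjusted p ranged from 0.00162 to 1.00 and passed the threshold in 5. Of the Cajal-Retzius markers, Lhx1, Lhx5 and Ebf3 did not pass the filter on low counts. Trp73 was 0.433, 0.642 and 0.482 CPM in Tg4-42 vehicle and 2.43, 0.553 and 1.46 CPM with caffeine, in overlapping groups with 4 to 33 counts a library. Its log2 difference of 1.46 ± 0.57 (edgeR adjusted p = 0.209) was opposite in sign to that of Reln, and its part in the Reln values was not tested. With the granule cell sum as a covariate the difference of Reln was -0.24, and with the neocortical sum -0.47. Npy, a peptide of neurogliaform, ivy and many Sst cells, was 89.3, 98.9 and 92.2 CPM with caffeine. Replicates 1 and 3 of these lay below all Tg4-42 vehicle libraries and replicate 2 within their range, and the log2 fold change was -0.47 ± 0.17 (edgeR adjusted p = 0.183). Without the second Tg4-42 vehicle library, Npy (adjusted p = 0.0494) and Reln (adjusted p = 0.0348) were both called by edgeR. Nos1, the neuronal nitric oxide synthase, was 21.8, 24.6 and 28.7 CPM in Tg4-42 vehicle, 26.3, 25.1 and 21.9 CPM in WT vehicle and 28.9, 30.9 and 38.4 CPM with caffeine. The caffeine libraries lay above all vehicle libraries, the lowest by a small margin, with a log2 fold change of 0.39 ± 0.16 (edgeR adjusted p = 0.228). The spans of Lhx6, Reln, Nos1 and Adarb2 overlap those of other annotated genes, for the last 3 partly on the other strand. These spans include introns, and whether exons overlap was not checked. The library kit does not mark strand, so that reads from any overlapping exons cannot be told apart.

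**Figure D3:**
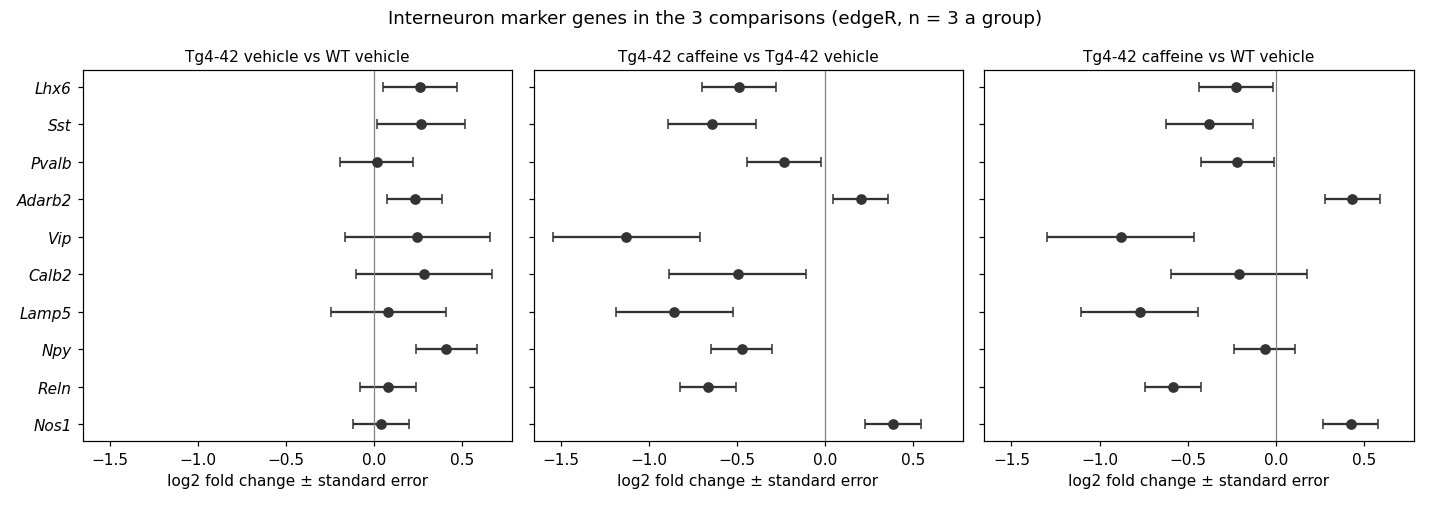
Log2 fold change with its standard error (horizontal axis) of the 10 marker genes in the 3 comparisons, n = 3 libraries a group. The values of Tg4-42 vehicle against WT vehicle lie between 0.01 and 0.41, and those of caffeine against Tg4-42 vehicle between -1.13 and 0.39.

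Tg4-42 caffeine was also compared with WT vehicle, which differ in both genotype and treatment, and this comparison shares its caffeine libraries with the one above. edgeR called 0 of the 10 genes (adjusted p from 0.101 to 0.897), against 0.415% of all genes. DESeq2 called 1, Reln, against 553 of 13440 genes. An unadjusted p under 0.05 was found for 4 genes, against 15.4% of all genes, with lower values of Lamp5 (-0.77 ± 0.33) and Reln (-0.59 ± 0.16) and higher values of Adarb2 (0.43 ± 0.16) and Nos1 (0.42 ± 0.16). The libraries did not overlap for 3 genes, Vip, Reln and Nos1, against 18.8% of all genes. Npy differed by -0.06 ± 0.17 and Calb2 by -0.21 ± 0.39, both less than their error.

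Of 10 tested pan-GABAergic genes, 1 fell and 0 rose past the threshold against Tg4-42 vehicle, and the list median was -0.41. A lower value at an unadjusted p under 0.05 was found for 6, against 9.82% of all genes. Slc32a1, the vesicular GABA transporter, fell from 16.3, 21.9 and 21.4 CPM to 8.38, 13.1 and 9.84 CPM, with a log2 fold change of -0.93 ± 0.20 (edgeR adjusted p = 0.0462). This call was lost when any 1 of 5 libraries of these groups was left out, and it remained only without caffeine replicate 2 (adjusted p from 0.0426 to 0.287 over the 6 fits). It was also lost with lane as a covariate (adjusted p = 0.0668). The GABA-synthesising enzymes Gad1 (-0.40 ± 0.15) and Gad2 (-0.43 ± 0.16) did not pass, with edgeR adjusted p of 0.184 and 0.187. Of 4 general neuron markers, Rbfox3 differed by 0.28 ± 0.13 (edgeR adjusted p = 0.291). Snap25 (-0.23 ± 0.16), Syt1 (-0.44 ± 0.14) and Tubb3 (-0.59 ± 0.17) went the other way. The median of this list was -0.34, and edgeR called 0 of its genes and DESeq2 2, both lower.

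Of 16 other tested MGE-associated genes, 3 fell and 0 rose past the threshold with caffeine in edgeR, and the list median was -0.51. DESeq2 called 5 lower, among them Nxph1 and Crhbp, and gave Chodl no adjusted p. Nxph1, a neurexin ligand, fell from 174, 161 and 226 CPM to 89.8, 126 and 82.8 CPM (log2 fold change -0.91 ± 0.16, edgeR adjusted p = 0.0385). Crhbp, which binds corticotropin-releasing hormone, fell from 81.5, 60.8 and 110.7 CPM to 35.7, 52.3 and 35.8 CPM (-1.03 ± 0.20, edgeR adjusted p = 0.0399). Chodl, a marker of long-range Sst and Nos1 cells, also fell, from a mean of 2.67 CPM to 0.369 CPM, with 18, 48 and 37 counts in the vehicle libraries and 2, 5 and 8 counts in the caffeine libraries. All 3 calls were lost without caffeine replicate 3 (adjusted p from 0.211 to 0.278), without Tg4-42 vehicle replicate 3 (0.222 to 0.224), without Tg4-42 vehicle replicate 1 (0.0678 to 0.0822) and with lane as a covariate (0.0553 to 0.0582). Crhbp was also lost without caffeine replicate 1 (0.0522) and with only the groups compared (0.0652), and Chodl without caffeine replicate 2 (0.0834) or Tg4-42 vehicle replicate 2 (0.0523). Of 16 other tested CGE-associated genes, Kit alone was called by edgeR, while DESeq2 called 4 lower and 1 higher, and the list median was -0.20. Kit, a receptor tyrosine kinase, fell from 177, 203 and 218 CPM to 103.7, 109.6 and 107 CPM (-0.90 ± 0.12, edgeR adjusted p = 0.012), and it was also lower than in WT vehicle (-0.91 ± 0.12, edgeR adjusted p = 0.0011). Against Tg4-42 vehicle the Kit call was lost without caffeine replicate 3 (edgeR adjusted p = 0.114) or Tg4-42 vehicle replicate 3 (0.0751). It was also lost in lane 6 alone (0.502) and with the neocortical (0.600) or granule cell (0.995) covariate. Against WT vehicle the Kit call remained with any 1 library left out and with the neocortical covariate (0.0150). There it was lost in lane 6 alone (0.0614) and with the granule cell covariate (0.213). Prox1, which is in the CGE list and is also a granule cell gene, was higher, at 0.93 ± 0.25 (edgeR adjusted p = 0.105).

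Of 17 tested receptors and signalling partners of the members' products, 0 passed the threshold with caffeine in edgeR and 1 in DESeq2. In this list 5 had an unadjusted p under 0.05, against 17% of all genes, and the list median was -0.18. The somatostatin receptors Sstr1 (-0.66 ± 0.17) and Sstr3 (-0.47 ± 0.18) had lower values. The Reln receptor Lrp8 (0.33 ± 0.12) and Nos1ap (0.37 ± 0.14), an adaptor of the Nos1 protein, had higher values. In Tg4-42 vehicle against WT vehicle the Vip receptor Vipr2 had the smallest unadjusted p of this list, at -2.33 ± 0.93, and it was high in the same WT library that had the thalamic marker.

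**Figure D4:**
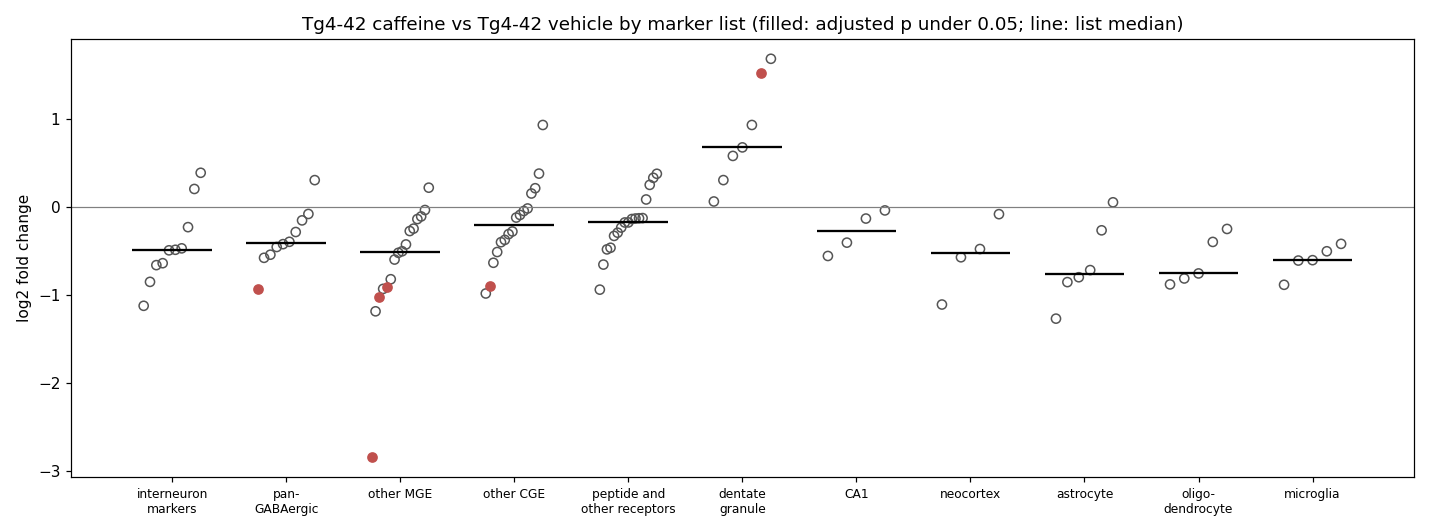
Log2 fold change of Tg4-42 caffeine against Tg4-42 vehicle (vertical axis) for every tested gene of 11 marker lists, with filled points for genes past the adjusted threshold and a line at each list median. The medians are -0.49 for the 10 interneuron markers, -0.41 for pan-GABAergic genes and 0.68 for dentate granule cell genes.

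Among markers of other cells, the dentate granule list had 1 gene called by edgeR with caffeine against Tg4-42 vehicle. This was Plk5, higher at 1.52 ± 0.26 (edgeR adjusted p = 0.0385), and DESeq2 called 3 of that list, all higher. The Plk5 call, like all edgeR calls, was absent without replicate 3 of either group. In each of the lists named below edgeR called 0 genes. The DESeq2 calls stand beside 747 of 14595 genes called by it in this comparison. Of all genes, 17% had an unadjusted p under 0.05 (9.82% lower) and 23% had libraries that did not overlap. Of 6 astrocyte markers, 3 had a lower value at an unadjusted p under 0.05 and DESeq2 called 1, with a list median of -0.76. Of 5 oligodendrocyte markers, 3 had such a lower value and DESeq2 called 2 (median -0.76), and of 5 microglia markers 2 had one and DESeq2 called 0 (median -0.61). The 3 tested markers of the striatum, whose projection neurons are themselves GABAergic, had a median of -0.69, with 2 at an unadjusted p under 0.05, 1 called by DESeq2 and no overlap between the groups for all 3. The medians were -0.27 over 4 CA1 markers, with 2 at an unadjusted p under 0.05 and 1 called by DESeq2, and -0.34 over 4 thalamic and habenular markers, with 1 and 0. Medians were also below 0 over 4 neocortical (-0.53), 4 general neuron (-0.34) and 2 oligodendrocyte precursor markers (-0.33). The 1 tested mossy cell marker, Calcrl, differed by -0.59. The glutamatergic list (median 0.09 over 4 markers) and the CA2 and CA3 list (0.17 over 6) were not lower. Each of these had 1 gene higher at an unadjusted p under 0.05 and 1 called higher by DESeq2. The part of all these cell types in the values of the interneuron genes was not tested.

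To set the markers against the inhibitory neuron genes of the same library, the mean log2 CPM of Gad1, Gad2 and Slc32a1 was subtracted from each. On this scale 5 of the 10 genes were higher with caffeine than in Tg4-42 vehicle, beside 93.9% of all tested genes. The median difference of all tested genes was 0.56, and the reference genes themselves had lower CPM with caffeine. The differences of Sst (-0.10), Lhx6 (0.08), Npy (0.13), Calb2 (-0.01) and Reln (-0.07) were small beside their spread, with exact permutation p from 0.8 to 1.0. Vip differed by -0.44 with an exact permutation p of 0.4. Nos1 was higher by 0.95 without overlap (exact permutation p = 0.1) and Adarb2 by 0.78 (exact permutation p = 0.2), beside the median of 0.56 for all genes. The share of all genes without overlap was not computed on this scale. With Gad1 and Gad2 alone as the reference, 3 genes were higher. Against WT vehicle, Tg4-42 vehicle had 2 of the 10 genes higher on this scale, beside 9.16% of all tested genes, and Tg4-42 caffeine had 6, beside 84.0%.

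**Figure D5:**
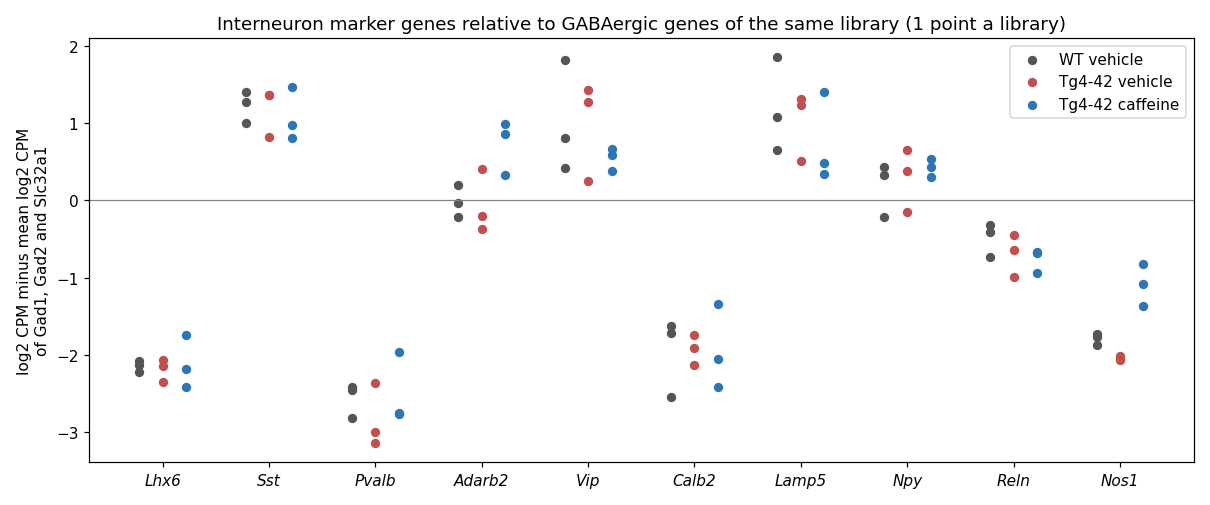
Log2 CPM of each marker gene minus the mean log2 CPM of Gad1, Gad2 and Slc32a1 in the same library (vertical axis), 1 point a library, coloured by group. The points of the groups overlap for most genes, and those of Nos1 with caffeine lie above the others.

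The 3 marker genes that varied most over the 9 libraries were Vip, Lamp5 and Calb2, with SDs of 0.67, 0.57 and 0.56 on the log2 CPM scale. The genes with the most similar pattern, by the root mean square difference of centred log2 CPM over 9 libraries, were Itga5 (0.22), Opn3 (0.25) and Lama4 (0.25) for Vip. For Lamp5 they were Kcnv1 (0.12), Sptbn5 (0.13) and Myl4 (0.15), and for Calb2 Zcchc12 (0.19), Gm7656 (0.22) and Gm38248 (0.23).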

How the data were processed

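The authors stained nuclei of frozen hippocampi for NeuN, sorted them, prepared SMART-Seq v4 and Nextera XT libraries and sequenced single 50-base reads. They aligned with STAR to mm10 and counted exonic reads per gene with featureCounts, and the deposited values are raw counts per Ensembl gene. Tool versions and the strand setting are not given in the sources used here. Symbols came from GENCODE M21 for 48349 of 48709 genes.

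Genes passing filterByExpr (minimum count 10, minimum total 15) were tested in edgeR 4.0.16 (R 4.3.3) with TMM scaling and a robust quasi-likelihood fit over all 9 libraries. Benjamini-Hochberg adjustment ran over all tested genes, with a threshold of 0.05. The procedure was tested on simulated data. DESeq2 1.42.0, other scalings, no filter, only the groups compared, a replicate block, sequencing lane and each library left out were alternatives. Log2 CPM used a pseudocount of 0.5. Exact permutation tests were two-sided.

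The members and gene lists were chosen with earlier results of these data known. Named genes were the 10 members, Gad1, Gad2, Slc32a1 and Rbfox3, called genes of the interneuron and receptor lists with up to 3 of the smallest p per list, genes of other cell types beside a result, and the 3 most similar genes of the 3 most variable members. Dlx6os1 matched more than 1 identifier and was left out. The values of 1 gene that the rule names are not reported here. No libraries of a group agreed within sampling noise (chi-square per degree of freedom 8.76 to 20.6). Intervals of counting error were not used, and depth is given as total counts.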

Additional observations from a re-analysis of the deposited data

How the results depend on the processing

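No setting called a marker gene in Tg4-42 vehicle against WT vehicle. In caffeine against Tg4-42 vehicle, where edgeR called 0, the number called was 1 with DESeq2, beside 747 of 14595 genes. It was 5 without the low-count filter (Sst, Vip, Lamp5, Npy and Reln), beside 987 of 30820 genes. With only the groups compared it was 1, beside 228 of 16861, and with the replicate block 1, beside 187 of 17361. With 1 library left out it was 0 to 2. Against WT vehicle, DESeq2 called 1, beside 553 of 13440 genes, and the fit without the filter 3, beside 860 of 30820. Relative to Gad1 and Gad2 alone, 6, 3 and 3 genes were higher in the 3 comparisons in the order above, and relative to all tested pan-GABAergic genes 3 and 3 in both caffeine comparisons. Leaving out 1 library gave 1 to 7, 3 to 7 and 5 to 5. The cause of these changes was not tested.

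Directions that turned were mostly in Tg4-42 vehicle against WT vehicle. Pvalb was -0.0046 with the replicate block, -0.0938 with the neocortical covariate and -0.12 to 0.16 with 1 library left out. Vip was -0.0349 with the neocortical covariate and -0.15 to 0.70 with 1 library left out, and Lamp5 was -0.19 and -0.16 to 0.43. In lane 6 alone Calb2 was -0.23, Reln -0.0825 and Nos1 -0.16, and with 1 library left out Reln was -0.0746 to 0.22 and Nos1 -0.0809 to 0.12. In caffeine against Tg4-42 vehicle, Pvalb was 0.0393 with the neocortical covariate. In caffeine against WT vehicle, Vip was 0.15 and Calb2 0.0854 with the granule cell covariate, and Calb2 -0.73 to 0.0681 with 1 library left out. Npy was 0.0437 in lane 6, 0.0991 and 0.17 with the neocortical and granule cell covariates, and -0.20 to 0.0331 with 1 library left out.

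Replicate numbers were given in accession order and were not taken to pair the libraries. The residual correlations of same-numbered libraries were 0.188, 0.138 and 0.156 for Tg4-42 vehicle with WT vehicle, and 0.152, 0.181 and -0.171 for caffeine with Tg4-42 vehicle, and -0.17, 0.008 and -0.106 for caffeine with WT vehicle. In the first of these every library correlated best with its own number, differently numbered pairs reaching at most 0.005, which is a hint from the data and not from the design. The replicate block added Reln (adjusted p = 0.0452) to the calls. In lane 6 alone no marker gene was called, and lane 7 held 1 library a group.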
